A study of Mus musculus with 48 samples.

Results

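Of the genes measured by RNA sequencing in mouse hearts, 32 that carry out or control the uptake and mitochondrial oxidation of fatty acids were described here. The members were chosen by name, from known function, with earlier results of these data known. Of these, 31 were matched by symbol among the 31920 genes of the deposited tables, and Mlycd (malonyl-CoA decarboxylase) was not matched and was not analysed here. The mice were of the FVB strain. Their genotype was wild type or PLNR9C, in which phospholamban, the inhibitor of the calcium pump of the sarcoplasmic reticulum, is mutated and dilated cardiomyopathy develops. Each genotype received vehicle or JQ1 (50 mg/kg), a small molecule that displaces BET bromodomain proteins from acetylated chromatin. Whole left ventricles were taken at 8 weeks of age, a stage labelled as before dilated cardiomyopathy, and at 20 weeks, and cardiomyocytes and non-myocytes were sampled at 16 weeks as pooled cells. The 2 genotypes, 2 treatments and 4 kinds of sample gave 16 groups of 3 libraries. The design text speaks of individual biological replicates, but the sources used here do not say how many animals entered a cell pool, so the spread between fraction libraries may be partly technical. They also do not name the promoter that drives the mutant protein.

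Long-chain fatty acids are the main fuel of the adult heart. Lipoprotein lipase frees them from circulating triglyceride, CD36 and fatty acid transport proteins bring them into the cell, acyl-CoA synthetases activate them, and the carnitine shuttle, whose entry enzyme is carnitine palmitoyltransferase 1, carries them into mitochondria. There the β-oxidation spiral shortens them by an acetyl-CoA at each turn, and electron transfer flavoprotein passes the electrons on to the respiratory chain. The nuclear receptor PPARα, encoded by Ppara, switches on many of these genes, and a failing heart is known to draw less on fatty acids.

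The libraries held 16984138 to 27086694 reads in genes for ventricles at 8 weeks and 18415351 to 26730918 at 20 weeks. Cardiomyocyte libraries held 10249780 to 13146653 and non-myocyte libraries 10041094 to 11815003. Levels are CPM, reads scaled to a common library size, when a gene is followed across libraries, and the deposited RPKM, which also divides by gene length, when genes are compared with one another. Genes rose or fell where edgeR's quasi-likelihood test gave an adjusted p under 0.05 after Benjamini-Hochberg adjustment over all genes tested, and log2 fold changes carry their standard error (SE). All 8 cardiomyocyte markers followed were higher in the cardiomyocyte fraction than in the non-myocyte fraction of wild type vehicle hearts, and all 7 fibroblast, 7 endothelial and 6 macrophage markers tested were lower. One library stood apart: PLNR9C JQ1 cardiomyocyte replicate 2 had a summed fibroblast marker level of 3347 CPM, against 978 and 1875 in the other 2 of its group. Results in treated PLNR9C cardiomyocytes are therefore given with and without it. Adipocyte markers, which would mark fat adhering to the heart, summed to at most 7.77 CPM in any library.

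PPARα binds DNA as a pair with the retinoid X receptor at a direct repeat of the hexamer AGGTCA with 1 base between. As a description of their sequence, the promoters of the genes were searched for this repeat (AGGTCA, any base N, AGGTCA) on both strands with at most 2 mismatches. RefSeq windows on GRCm38.p6, from 250 bases before to 50 bases after a start site, were found for 27 of the 31 genes, as 30 windows. The repeat was present in 5 of the 30 windows (16.7%), against 3.86% of all 32817 windows of the same length. A second motif, the extended half-site TCAAGGTCA bound by estrogen-related receptors, occurred exactly in 0 of the 30 windows and in 0.424% of all windows. The stretches of 73 bases around the 4 repeats that lie before a start site are shown because they are where these letters were found, with the repeat in capitals, 5′ to 3′ on the strand of the gene. The Cd36 stretch (chr5:17835917-17835989, minus strand) has the repeat on its complementary strand, 63 to 51 bases before the start. That RefSeq start lies inside the listed span of the gene (17781690 to 17888959) and not at 17888959, where the listed gene begins.
Cd36: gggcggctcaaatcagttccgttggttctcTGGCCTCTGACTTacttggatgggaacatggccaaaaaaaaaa
In Ucp3 (chr7:100472910-100472982, plus strand) the repeat lies 51 to 39 bases before the start.
Ucp3: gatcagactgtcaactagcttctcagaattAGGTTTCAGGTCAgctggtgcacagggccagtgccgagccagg
In Echs1 (chr7:140116462-140116534, minus strand) it lies 83 to 71 bases before the start.
Echs1: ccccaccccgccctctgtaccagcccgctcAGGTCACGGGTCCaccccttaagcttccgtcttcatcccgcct
In Etfa (chr9:55512278-55512350, minus strand) the repeat, again on the complementary strand, lies 77 to 65 bases before the start.
Etfa: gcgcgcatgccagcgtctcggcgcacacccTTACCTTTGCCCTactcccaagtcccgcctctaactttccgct
The fifth window with the repeat, that of Slc25a20, has it just after the start site. A match of letters is a description. Binding was not measured, and the matches were not tested against the changes in expression.

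In wild type vehicle ventricles at 8 weeks, the genes covered a wide range of levels per length. Fabp3, the small protein that carries fatty acids through the cytosol of muscle cells, was the most abundant at 1095 ± 36.5 RPKM (mean ± SD, n = 3). Lpl followed at 646 ± 41.8 RPKM and Ech1 at 625 ± 1.76, and their ranges overlapped (609 to 691 and 624 to 627). The enzymes of the spiral came next, with Hadhb at 564 ± 3.25, Acadl at 453 ± 9.89 and Acadm at 405 ± 9.09 RPKM. Cd36 stood at 390.3 ± 8.85 RPKM. The ranges of Hadhb and Acadl were apart from each other and from that of Acadm, while the ranges of Acadm and Cd36 overlapped. Cpt1b, the muscle form of carnitine palmitoyltransferase 1, reached 285 ± 10.7 RPKM, and Cpt1a, the form best known from liver, 15.00 ± 2.04. At the low end were Ppara at 25.5 ± 1.17, Ucp3, an inner-membrane carrier of muscle mitochondria, at 17.6 ± 6.60, Acot1 at 4.11 ± 0.781 and Acsm5, a medium-chain acyl-CoA synthetase, at 2.13 ± 0.436 RPKM. At 20 weeks Fabp3 again led, at 897 ± 39.4 RPKM, and Acot1 and Acsm5 were again lowest, at 3.81 ± 0.277 and 4.11 ± 0.665 RPKM, with overlapping ranges.

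Between the fractions of wild type vehicle hearts, nearly all of the genes were far higher in cardiomyocytes. Of 31 genes tested, 29 were higher in cardiomyocytes and 1 was lower, where 79.5% of all genes tested passed, 37.3% higher and 42.2% lower. The median log2 difference was 4.12, against -0.13 over all genes. For this comparison CPM were scaled over both fractions together. The largest difference was that of Cpt1b, with 1139, 1169.8 and 1223 CPM in the cardiomyocyte libraries and 20.7, 37.8 and 22.6 in the non-myocyte libraries (log2 difference 5.44 ± 0.29, adjusted p = 2.05e-13). Ppara had 342, 337 and 349.7 against 8.98, 11.4 and 7.95 CPM (5.18 ± 0.24, adjusted p = 5.64e-14), and Fabp3 differed by 5.18 ± 0.41. In Cpt1b and Ppara every cardiomyocyte library was far above every non-myocyte one. Cardiomyocyte markers were also read in the non-myocyte libraries, where the 8 summed to 1984, 3046 and 1956 CPM, scaled within that fraction. The part of carried-over cardiomyocyte RNA in the non-myocyte levels given here was not tested.

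Cpt1a went the other way. Its non-myocyte libraries held 132, 155 and 139.7 CPM and its cardiomyocyte libraries 56.6, 59.2 and 63.2, without overlap (-1.25 ± 0.16, adjusted p = 3.16e-07), and with library totals the difference was -2.22. Per length, the non-myocyte level of Cpt1a was 46.7 ± 3.39 RPKM, above the 13.2 ± 4.47 RPKM of Cpt1b in the same libraries. In the cardiomyocyte libraries the order was the reverse, with 10.02 ± 0.398 RPKM of Cpt1a and 294 ± 6.30 of Cpt1b. Cd36, a receptor that endothelial cells and macrophages also carry, was the gene that did not pass: it had 1604, 1673 and 1956 CPM in cardiomyocytes and 992, 1029.7 and 1724 in non-myocytes (0.48 ± 0.24, adjusted p = 0.0699), with overlapping groups. The scaling decided the sign for Cd36: with library totals, which moved the median of all genes to -1.10, its estimate was -0.49, adjusted p = 0.0649, and without wild type vehicle non-myocyte replicate 3, its highest library, it was 0.79, adjusted p = 0.00673. Lpl, the other gene abundant outside the myocyte, had 891, 990.4 and 1108 CPM in non-myocytes and 5352, 5108 and 5286 in cardiomyocytes (2.4 ± 0.22). Cd36 and Lpl led the non-myocyte libraries per length, at 449 ± 149.7 and 222 ± 24.3 RPKM.

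**Figure D1:**
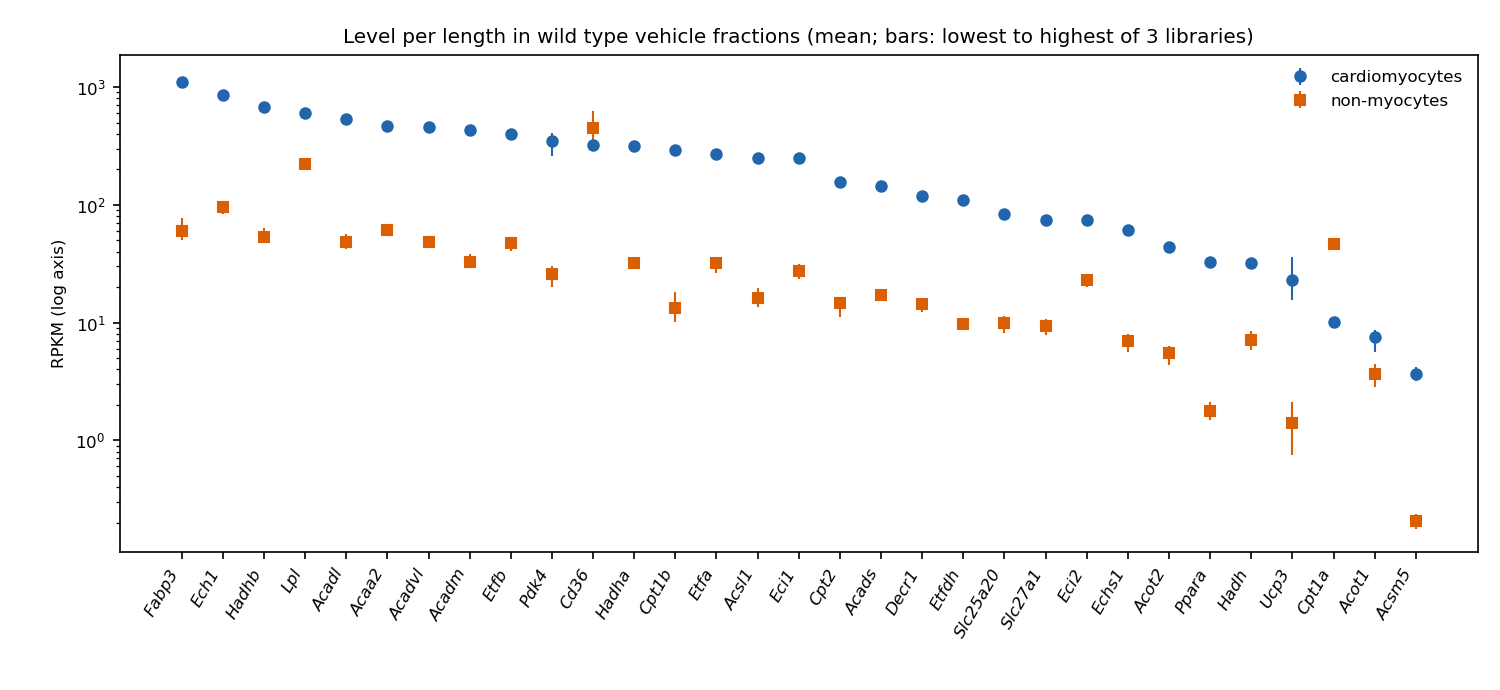
Level per length (RPKM, log axis) of the 31 genes in wild type vehicle cardiomyocytes and non-myocytes, ordered by the cardiomyocyte level; points are means and bars run from the lowest to the highest of 3 libraries. RPKM are per library total; on that scale Cpt1a (46.7 against 10.02 RPKM) and Cd36 lie higher in non-myocytes, and Cd36 lies lower there on the scale of the joint fit.

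In the 20-week ventricle, genes of every step of the pathway were lower in mutant hearts. With vehicle, 30 of 31 genes were lower in PLNR9C than in wild type hearts and 0 were higher, where 44.7% of all genes tested passed, 23.3% rising and 21.4% falling. The median log2 fold change of the genes was -1.47, against 0.01 over all genes. Together their reads made up 0.802% of all reads in genes in PLNR9C and 1.77% in wild type hearts. The fall covered 4 of 4 uptake genes, 3 of 4 of the carnitine shuttle and 9 of 9 of the spiral. It also covered 4 of 4 auxiliary enzymes and 3 of 3 genes for electron transfer. In the group listed under activation, which also holds the thioesterases Acot1 and Acot2, 4 of 4 fell. In the group listed as regulators, which also holds the carrier Ucp3, 3 of 3 fell.

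Among the uptake genes, Lpl (chromosome 8, 68880555 to 68907448, coordinates of the deposited tables on GRCm38) had 4083, 3574 and 4136 CPM in wild type and 1521, 1566 and 1434 in PLNR9C ventricles (-1.38 ± 0.10, adjusted p = 2.60e-09). Cd36 (chromosome 5, 17781690 to 17888959) stood at 1554, 1602 and 1712 CPM against 707, 764 and 868 (-1.06 ± 0.09). In both genes every PLNR9C library lay below every wild type library. Fabp3 and Slc27a1, a fatty acid transport protein of the plasma membrane, fell by 1.38 and 1.29 on the log2 scale.

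The activation step held the deepest fall of all. Acsm5 (chromosome 7, 119526265 to 119543360) went from 13.5, 12.4 and 9.53 CPM in wild type to 0.301, 0.367 and 0.243 in PLNR9C libraries, a 38.1-fold difference (-5.25 ± 0.29, adjusted p = 1.95e-10). Those PLNR9C levels rest on few reads in each library, which limits how well the fold is known. Acsl1 (chromosome 8, 46471042 to 46536050), the main long-chain acyl-CoA synthetase of heart, had 1165, 1225 and 1130.0 CPM against 337, 342 and 366 (-1.75 ± 0.08, adjusted p = 1.55e-11). Its PLNR9C libraries were close to one another and far below the wild type ones. The thioesterases Acot1 and Acot2, which release free fatty acid from acyl-CoA, are near-identical neighbours on chromosome 12, so the split of reads between them is uncertain. Acot1 had 6.40, 6.71 and 5.78 CPM in wild type and 1.14, 0.551 and 0.0972 in PLNR9C ventricles (-3.28 ± 0.49). For Acot2 the values were 88.4, 65.2 and 80.7 and 18.1, 14.7 and 16.04 CPM (-2.26 ± 0.11). Neither overlapped between genotypes.

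In the carnitine shuttle the 2 forms of the entry enzyme parted. Cpt1b (chromosome 15, 89416405 to 89425862) fell from 908, 951 and 901 CPM to 440.2, 491 and 493 (-0.95 ± 0.07, adjusted p = 6.30e-09). Cpt1a (chromosome 19, 3323301 to 3385733) had 59.9, 71.1 and 79.0 CPM in wild type and 77.4, 76.1 and 68.5 in PLNR9C libraries (0.08 ± 0.12, adjusted p = 0.597), and the groups overlapped. It was the one gene that did not pass, and with library totals in place of scaled sizes, a setting that moved the median of all genes to 0.27, it rose by 0.34, adjusted p = 0.0307. Cpt2, the enzyme that re-forms acyl-CoA inside the mitochondrion, and the carrier Slc25a20 fell by 1.61 and 1.33.

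All 9 enzymes of the spiral fell, by 0.87 (Hadh) to 2.33 (Acaa2) on the log2 scale. Acaa2, a thiolase that completes a turn of the spiral, had 517, 469 and 427 CPM in wild type and 98.5, 82.7 and 99.6 in PLNR9C ventricles (-2.33 ± 0.10, adjusted p = 1.69e-11). Acadm (chromosome 3, 153922359 to 153944432), the medium-chain acyl-CoA dehydrogenase, had 821, 773 and 729.9 against 259, 282 and 263 CPM (-1.53 ± 0.08). The α subunit of the trifunctional protein, Hadha (chromosome 5, 30118304 to 30154980), had 1507, 1289 and 1355 against 417, 442 and 443 (-1.67 ± 0.08), and its partner Hadhb fell by 1.47. Hadha and Hadhb lie side by side on chromosome 5 within 1 listed transcript, and without knowledge of strand their reads cannot be fully told from that transcript's. The very long-, long- and short-chain dehydrogenases Acadvl, Acadl and Acads had log2 fold changes of -1.55, -0.90 and -0.92, and the hydratase Echs1 -0.91.

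Among the auxiliary enzymes, which rearrange double bonds so that unsaturated fatty acids can enter the spiral, Ech1 and Eci1 fell by 2.27 and 2.09, Decr1 by 1.94 and Eci2 by 1.06. Etfa and Etfb, the subunits of electron transfer flavoprotein, and Etfdh, which hands its electrons to ubiquinone, had log2 fold changes of -1.26, -1.37 and -1.56. Of the regulators, Ppara (chromosome 15, 85735564 to 85806851) had 247, 242 and 227 CPM in wild type and 101, 109 and 86.8 in PLNR9C libraries (-1.27 ± 0.09, adjusted p = 4.79e-09). Ucp3 (chromosome 7, 100472991 to 100486432) had 24.9, 35.3 and 48.3 against 4.66, 4.18 and 3.26 CPM (-3.15 ± 0.40, adjusted p = 1.59e-04). Pdk4 (chromosome 6, 5483351 to 5496278), the kinase that shuts pyruvate dehydrogenase when fat is burned, varied more among libraries, with 306, 433 and 833 CPM in wild type and 159.8, 164 and 140.4 in PLNR9C (-1.76 ± 0.45, adjusted p = 0.0125). In all 3 regulators the genotypes did not overlap.

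Cell type markers moved with this result. The 8 cardiomyocyte markers summed to 58718 to 68269 CPM in wild type and 27244 to 32426 in PLNR9C ventricles, and 7 of 8 fell, with a median of -0.88. Myoz2 did not (-0.04 ± 0.08) and Actn2 fell by 0.23. All 7 fibroblast markers rose (median 1.45), as did all 6 macrophage markers (median 1.47). Of the endothelial markers, 5 of 7 fell and 1 rose (median -0.36), and of the mural markers 3 of 6 rose and 1 fell (median 0.51). The share of reads from mitochondrially encoded genes was 8.57% in PLNR9C and 14.1% in wild type. In whole ventricle, fewer cells of a type and less RNA per cell cannot be told apart, and the part of these shifts in the fall of the genes was not tested.

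**Figure D2:**
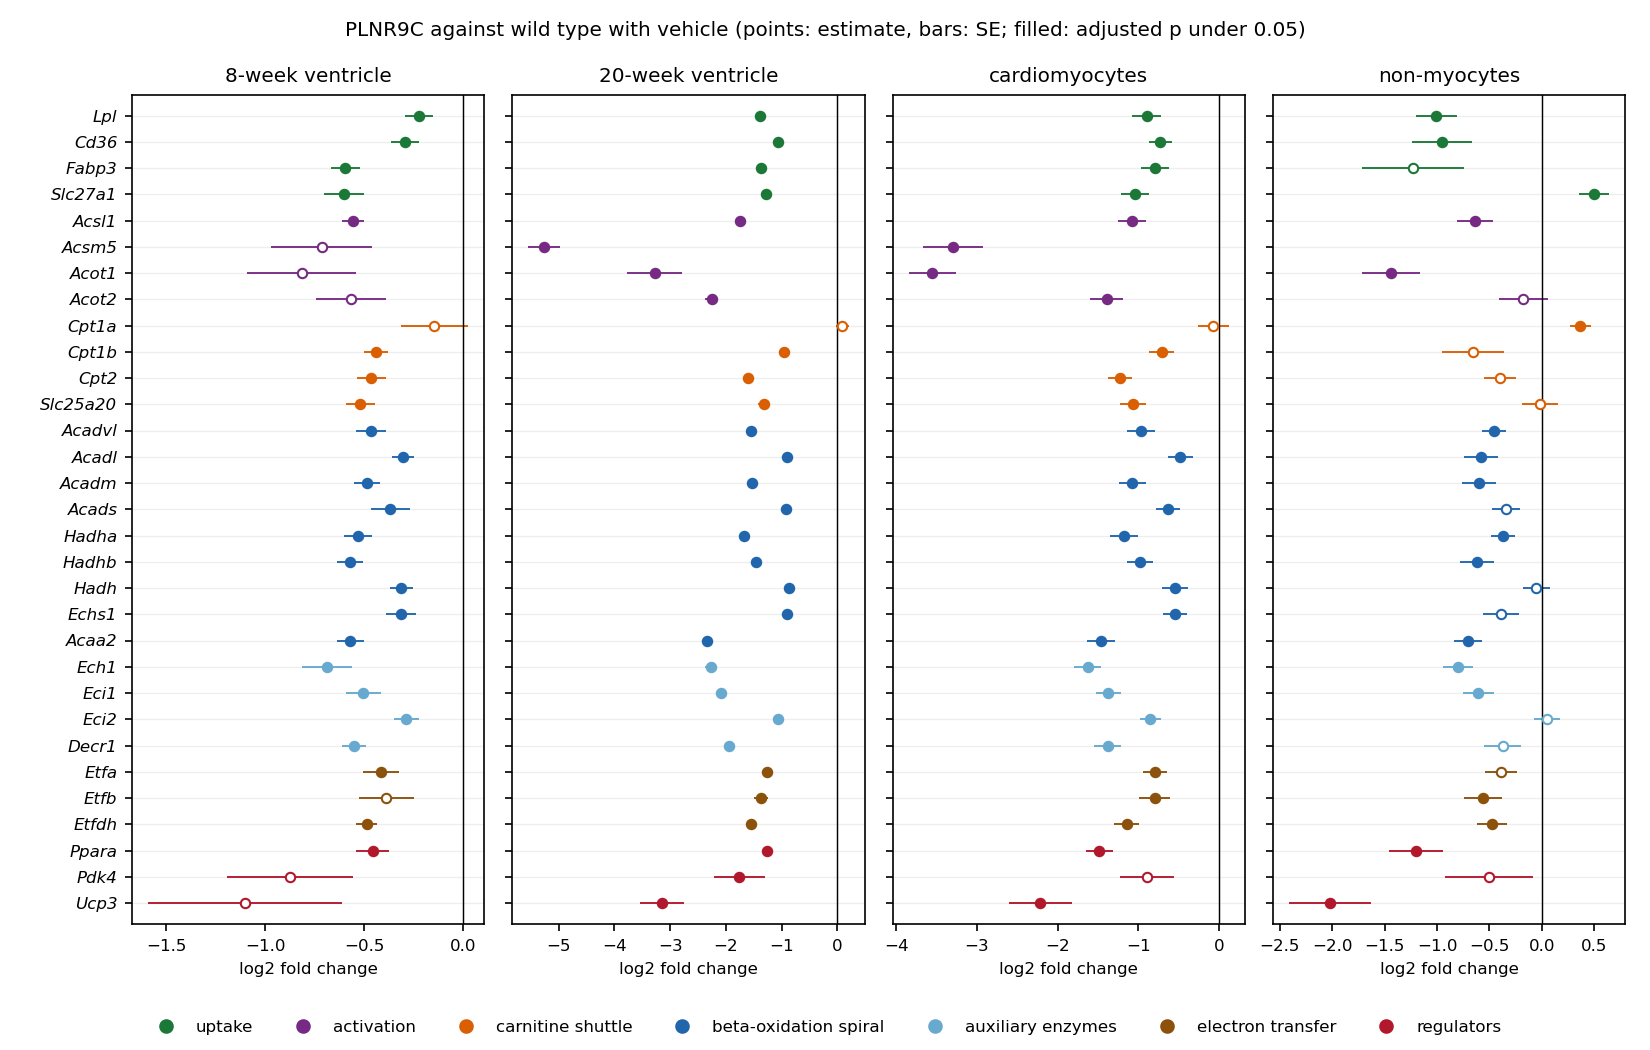
Log2 fold change of PLNR9C against wild type with vehicle for each gene in the 4 kinds of sample; points are estimates coloured by role, bars are SE and filled points have an adjusted p under 0.05. Nearly all points lie left of 0, the 20-week ventricle has the largest falls (median -1.47), and Cpt1a stays near 0 in both ventricle ages and in cardiomyocytes.

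At 8 weeks the fall was smaller but already broad. Of the 31 genes, 24 were lower in PLNR9C ventricles and 0 were higher, where 14.4% of all genes tested passed, 7.86% rising and 6.49% falling. The median log2 fold change was -0.49, against 0.01 over all genes, and the estimate was negative for all 31. The largest falls that passed were those of Ech1, with 744, 708 and 713 CPM in wild type and 493, 353 and 500.3 in PLNR9C libraries (-0.69 ± 0.13, adjusted p = 0.00369), and of Slc27a1, with 279.7, 274 and 281 against 176, 175 and 199 CPM (-0.60 ± 0.10, adjusted p = 0.00114). Acsl1 had 1107, 1089 and 1081 against 709, 754 and 766 CPM (-0.56 ± 0.06) and Acaa2 547, 534 and 517 against 379, 312 and 386 (-0.57 ± 0.07). In these 4 genes no PLNR9C library reached a wild type one. All 9 enzymes of the spiral, all 4 uptake genes and all 4 auxiliary enzymes fell.

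The 7 genes that did not pass were Cpt1a (-0.14 ± 0.17), Etfb (-0.39 ± 0.14), Acot1 (-0.82 ± 0.27), Acot2 (-0.57 ± 0.18), Acsm5 (-0.71 ± 0.26), Pdk4 (-0.87 ± 0.32) and Ucp3 (-1.10 ± 0.49), of which the last 5 had large estimates and wide errors. Acsm5, for example, had 5.16, 7.09 and 5.22 CPM in wild type and 3.11, 4.30 and 3.32 in PLNR9C libraries. At this age 3 of 8 cardiomyocyte markers fell (median -0.22), 5 of 7 fibroblast markers rose (median 0.44) and 6 of 6 macrophage markers rose (median 1.19). Their part in the result was not tested.

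The deepening with age was tested as the genotype effect at 20 weeks minus that at 8 weeks, over the 24 ventricle libraries. 29 of 31 genes had a stronger fall at 20 weeks, where 15.5% of all genes tested passed, 7.03% above 0 and 8.51% below 0, and the median difference was -0.97, against -0.02 over all genes. The smallest p-values were those of Decr1 (difference -1.38 ± 0.09, adjusted p = 2.72e-10), Acaa2 (-1.76 ± 0.12, adjusted p = 2.87e-10), Acsl1 (-1.19 ± 0.09, adjusted p = 4.16e-10), Etfdh (-1.06 ± 0.08), Eci1 (-1.58 ± 0.13) and Hadha (-1.14 ± 0.10). The largest difference was that of Acsm5 (-4.53 ± 0.45, adjusted p = 1.25e-07), whose PLNR9C level at 20 weeks rests on few reads. Cpt1a (0.23 ± 0.22) and Pdk4 (-0.88 ± 0.55) did not pass. Of the cardiomyocyte markers, 5 of 8 passed in the same direction, with a median of -0.55. In the opposite direction, 5 of 7 fibroblast markers (median 1.02) and 2 of 6 mural markers passed. The part of these shifts in the difference was not tested. The 2 ages came in separate tables, so the effects within each age were compared and not the levels.

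In the isolated fractions, most of the genes fell within the mutant's cardiomyocytes. At 16 weeks, 29 of 31 genes were lower in PLNR9C than in wild type cardiomyocytes and 0 were higher, where 26.1% of all genes tested passed, 14.3% rising and 11.8% falling, and the median was -1.04, against 0.00 over all genes. Acot1 showed the largest fall, from 13.6, 8.86 and 14.0 CPM to 0.763, 0.934 and 1.39 (-3.56 ± 0.29, adjusted p = 8.95e-06), and Acsm5 the next, from 8.77, 9.89 and 11.8 to 0.424, 0.934 and 1.74 (-3.30 ± 0.37, adjusted p = 7.34e-05). Both were far apart between genotypes. Acaa2 had 726, 717 and 692 CPM against 233, 288 and 251 (-1.47 ± 0.17, adjusted p = 1.02e-04), Acsl1 966, 980.3 and 1070.3 against 419, 523 and 492 (-1.07 ± 0.17) and Ppara 254, 249.9 and 258 against 81.2, 108 and 83.6 (-1.48 ± 0.17). The smallest of the falls was that of Acadl (-0.48 ± 0.15).

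Cpt1a was nearly level in cardiomyocytes, with 42.1, 43.9 and 46.7 CPM in wild type and 41.6, 42.7 and 42.1 in PLNR9C (-0.07 ± 0.19, adjusted p = 0.821). Pdk4, with 924, 1303 and 1479 against 459, 510.2 and 1031 CPM and overlapping groups, did not pass either (-0.89 ± 0.34, adjusted p = 0.0711). In these libraries 3 of 8 cardiomyocyte markers fell and none rose, with a median of -0.44. Actn2 (0.02 ± 0.17) and Myoz2 (0.27 ± 0.13), which did not pass, were the only 2 with a positive estimate. The 8 markers summed to 64106 to 73621 CPM in wild type and 38852 to 45571 in PLNR9C cardiomyocytes. The fibroblast markers summed to 166 to 244 CPM in wild type and 890.0 to 1413 in PLNR9C cardiomyocytes, beside 16199 to 21087 in PLNR9C non-myocytes, each fraction on its own scale, and 6 of 7 rose. All 6 macrophage markers rose as well (median 2.24), and mitochondrially encoded genes took 13.7% of reads in wild type and 9.98% in PLNR9C cardiomyocytes. Their part in the fall was not tested.

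In non-myocytes more of the genes fell than rose in the mutant. Acsm5 was too low to be tested, with 0.443, 0.507 and 0.5999 CPM in wild type and 0, 0.0909 and 0 in PLNR9C vehicle libraries. It had 0 reads in all 3 PLNR9C JQ1 libraries, a count that allows up to 0.263 to 0.299 CPM per library by counting error. Of the other 30 genes, 16 fell and 2 rose, where 18.6% of all genes tested passed, 10.3% rising and 8.32% falling. The median was -0.53, against -0.01 over all genes. The largest falls were those of Ucp3, with 1.86, 3.30 and 5.23 CPM against 0.957, 0.545 and 1.04 (-2.02 ± 0.39, adjusted p = 0.00282), and Acot1, with 4.17, 5.24 and 6.43 against 1.39, 2.00 and 2.46 (-1.44 ± 0.27, adjusted p = 0.00257). Lpl went from 1187, 1298 and 1469 CPM to 419.7, 838 and 708 (-1.01 ± 0.19, adjusted p = 0.00280), with no overlap. Cd36 fell from 1321, 1349 and 2285 to 671, 1014 and 878 CPM (-0.95 ± 0.28, adjusted p = 0.0363), a call that was lost when the replicate number entered the fit as a block (adjusted p = 0.0556).

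The genes that rose were Cpt1a, from 176, 202 and 185 to 268, 215 and 244 CPM (0.37 ± 0.10, adjusted p = 0.0234), and Slc27a1, from 23.0, 31.3 and 27.9 to 36.9, 37.5 and 41.7 CPM (0.50 ± 0.15, adjusted p = 0.0297). Neither overlapped between genotypes. Leaving out PLNR9C vehicle replicate 1 gave 10 calls in place of 18. Leaving out wild type vehicle replicate 2 gave 9 and replicate 3 gave 11. Over all genes those fits gave 1864, 2026 and 2029 calls, in that order, in place of 2861. The makeup of the fraction moved too: 6 of 7 endothelial markers fell (median -0.80), 4 of 7 fibroblast and 6 of 6 macrophage markers rose, and the cardiomyocyte markers summed to 1956 to 3046 CPM in wild type and 1099 to 1503 in PLNR9C libraries. Their part in the result was not tested.

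Set against each other over the 24 fraction libraries, the mutant's fall was larger in cardiomyocytes than in non-myocytes for 11 of 31 genes and smaller for 0, where 8.33% of all genes tested passed, 4.09% above 0 and 4.24% below 0. The 6 with the smallest p were Slc27a1 (difference -1.58 ± 0.24, adjusted p = 3.01e-04), Eci2 (-0.95 ± 0.19), Acot1 (-2.17 ± 0.43), Slc25a20 (-1.10 ± 0.25), Decr1 (-1.05 ± 0.26) and Cpt2 (-0.88 ± 0.22). Slc27a1 fell in cardiomyocytes, from 240.3, 212 and 269.6 to 127, 109.6 and 115 CPM (-1.04 ± 0.18), and rose in non-myocytes. The count of 11 was 7 without PLNR9C vehicle cardiomyocyte replicate 1, 7 without PLNR9C vehicle non-myocyte replicate 1 or without replicate 2, 5 without wild type vehicle non-myocyte replicate 1 and 7 without replicate 3. Over all genes those fits gave 1239, 1059, 1015, 994 and 1107 calls, in that order, in place of 1318.

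**Figure D3:**
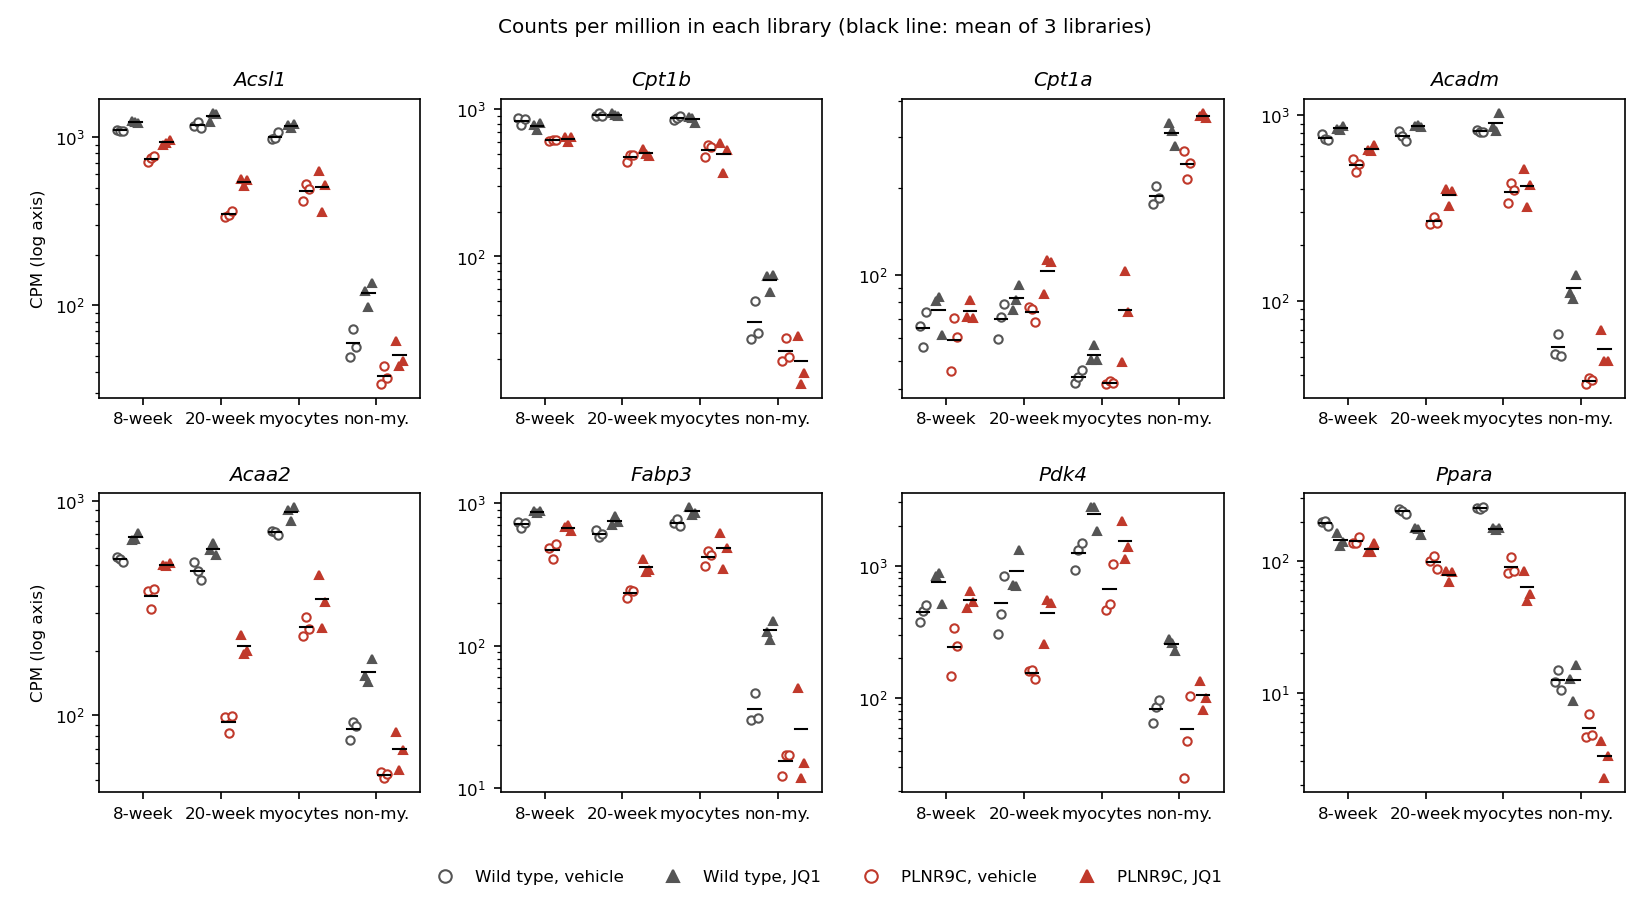
Level (CPM, scaled within each kind of sample, log axis) of 8 genes in every library of the 16 groups; grey is wild type, red is PLNR9C, open circles are vehicle, filled triangles are JQ1 and black lines are means of 3 libraries. The red points of Acaa2 drop to 82.7 to 99.6 CPM in vehicle ventricles at 20 weeks, and Cpt1a is the gene with its highest values in non-myocytes.

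JQ1 raised most of the genes in the PLNR9C ventricle at 20 weeks, and most stayed below wild type. In PLNR9C, 25 of 31 genes rose with JQ1 and 1 fell, where 31.9% of all genes tested passed, 15.9% rising and 16.1% falling. The median log2 fold change was 0.47, against 0.00 over all genes. The rise covered 9 of 9 enzymes of the spiral, 4 of 4 auxiliary enzymes and 3 of 3 genes of electron transfer.

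The largest rises were those of Pdk4 and Acsm5. Pdk4 had 159.8, 164 and 140.4 CPM with vehicle and 257, 552 and 518 with JQ1 (1.51 ± 0.45, adjusted p = 0.0328), and leaving out any 1 of 5 of the 6 libraries, all but PLNR9C JQ1 replicate 1, ended the call (adjusted p = 0.0815 to 0.0959). Acsm5 went from 0.301, 0.367 and 0.243 to 0.769, 0.486 and 1.24 CPM (1.42 ± 0.39, adjusted p = 0.00933), few reads and far below its wild type level. Its call was lost without PLNR9C JQ1 replicate 3 (1.03, adjusted p = 0.0595). Acaa2 rose 2.24-fold, from 98.5, 82.7 and 99.6 to 238, 192 and 200.4 CPM (1.17 ± 0.10, adjusted p = 2.91e-07). Eci1 followed, from 43.6, 44.1 and 49.2 to 86.0, 71.2 and 78.0 CPM (0.78 ± 0.09, adjusted p = 5.15e-06). In none of these 4 genes did the treated libraries overlap with the vehicle ones.

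Acsl1 rose from 337, 342 and 366 to 560.1, 509 and 557 CPM (0.64 ± 0.07), Lpl from 1521, 1566 and 1434 to 2353, 1848 and 2330.2 (0.53 ± 0.09) and Hadha from 417, 442 and 443 to 642, 556 and 587 (0.46 ± 0.08). Cpt1a rose as well, from 77.4, 76.1 and 68.5 to 85.8, 112 and 111 CPM (0.48 ± 0.11, adjusted p = 0.00512). Its partner form Cpt1b, with 536, 494 and 484 CPM under JQ1, did not pass (0.09 ± 0.07, adjusted p = 0.360). Cd36 (0.12 ± 0.09), Slc27a1 (0.07 ± 0.07), Acot1 (1.26 ± 0.55) and Ucp3 (0.79 ± 0.41) did not pass either. Ppara moved the other way, from 101, 109 and 86.8 to 83.7, 68.8 and 81.9 CPM (-0.34 ± 0.09, adjusted p = 0.00813). That call was lost without PLNR9C JQ1 replicate 2 (adjusted p = 0.0577) or PLNR9C vehicle replicate 2 (adjusted p = 0.0565).

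The cardiomyocyte markers moved in the same direction: 5 of 8 rose, with a median of 0.56, and their sum was 38634 to 44166 CPM with JQ1. Of the fibroblast markers, 1 of 7 fell and none rose. The part of these shifts in the rise of the genes was not tested. Compared with vehicle wild type hearts, 29 of the 31 genes were still lower in JQ1-treated PLNR9C ventricles and 1 was higher, where 49.7% of all genes tested passed, 25% higher and 24.7% lower. The median log2 difference was -1.02, against 0.00 over all genes. The higher one was Cpt1a (0.56 ± 0.11, adjusted p = 8.32e-04), and Pdk4 did not pass (-0.24 ± 0.44). The furthest below were Acsm5 (-3.83 ± 0.24) and Ucp3, whose treated PLNR9C libraries held 6.15, 9.10 and 5.91 CPM (-2.35 ± 0.37, adjusted p = 5.99e-04). The vehicle and treated PLNR9C groups were set against the same wild type libraries, so these 2 comparisons are not independent.

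In wild type ventricles at 20 weeks JQ1 moved few of the genes. 4 of 31 rose and 1 fell, where 27.2% of all genes tested passed, 12.3% rising and 14.9% falling. Acaa2 rose from 517, 469 and 427 to 587, 633 and 561 CPM (0.33 ± 0.10, adjusted p = 0.0148), Fabp3 from 644, 577 and 607 to 699, 819.8 and 736 (0.30 ± 0.09, adjusted p = 0.0165), and Acadl (0.28 ± 0.06) and Hadha (0.22 ± 0.08) by less. Ppara fell from 247, 242 and 227 to 178, 176 and 158 CPM (-0.49 ± 0.09, adjusted p = 6.79e-04), again without overlap. The 5 calls became 2 without wild type JQ1 replicate 2, 8 without wild type vehicle replicate 1 and 3 without wild type vehicle replicate 2. Over all genes, leaving out those libraries gave 3496, 3964 and 3519 calls, in that order, in place of 4338. With library totals in place of scaled sizes, 1 rose and 1 fell, beside 1154 rising and 3330 falling of all 15971 genes. Of the cardiomyocyte markers, 3 of 8 rose (median 0.27), and their part in the result was not tested.

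Whether the JQ1 effect differed between the genotypes was tested as an interaction at 20 weeks. Acaa2 rose more in PLNR9C than in wild type ventricles (difference 0.83 ± 0.14, adjusted p = 0.0182), and so did Eci1 (0.58 ± 0.12, adjusted p = 0.0446). These were the 2 of 31 genes that passed, where 0.357% of all genes tested passed, 0.15% above 0 and 0.207% below 0. The estimate was positive for 31 of the 31, with a median of 0.37 against 0.02 over all genes, and 20 had an unadjusted p under 0.05, as did 1641 of all 15971 genes. Without PLNR9C JQ1 replicate 1 neither passed (Acaa2 0.74, adjusted p = 0.0563), and Eci1 also lost its call without any 1 of 7 other libraries: PLNR9C JQ1 replicate 3, PLNR9C vehicle replicates 1 and 2, wild type JQ1 replicates 2 and 3, and wild type vehicle replicates 1 and 3, after each of which 1 gene passed. Over all genes 8 passed without PLNR9C JQ1 replicate 1, in place of 57. DESeq2's Wald test called 7 of the members and 216 of all genes.

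At 8 weeks JQ1 raised 14 of 31 genes in PLNR9C and lowered 0, where 33.1% of all genes tested passed, 15.5% rising and 17.7% falling. The median was 0.19, against -0.01 over all genes. Pdk4 rose most, from 148, 336 and 247 to 479, 639 and 534 CPM (1.18 ± 0.32, adjusted p = 0.0224), followed by Acot1, from 3.23, 2.82 and 5.25 to 5.24, 7.64 and 5.81 (0.76 ± 0.27, adjusted p = 0.0480), with overlapping groups. Acaa2 rose from 379, 312 and 386 to 502, 495 and 512 CPM and Fabp3 from 487, 404 and 522 to 676, 703 and 644 (0.49 ± 0.07 and 0.52 ± 0.08). With library totals, which moved the median of all genes to -0.11, 8 rose and 1 fell. In that fit 1268 rose and 3798 fell of all 15501 genes. Of the cardiomyocyte markers, 5 of 8 rose (median 0.29), and their part in the result was not tested.

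In wild type hearts of this age 6 of the genes rose and 1 fell, where 29.8% of all genes tested passed, 14.3% rising and 15.4% falling. With library totals 4 rose and 2 fell, beside 1605 rising and 2892 falling of all 15501 genes. Acot1 rose from 5.40, 7.60 and 6.46 to 13.5, 9.47 and 17.4 CPM (1.04 ± 0.25, adjusted p = 0.00634), Acaa2 from 547, 534 and 517 to 656, 662 and 711 (0.34 ± 0.07). Ppara fell from 199, 201 and 184 to 164, 129 and 140.3 (-0.43 ± 0.08, adjusted p = 7.75e-04). In PLNR9C hearts of that age Ppara had 137, 137 and 153 CPM with vehicle and 117, 118 and 137 with JQ1 (-0.19 ± 0.08, adjusted p = 0.0814). The JQ1 effect did not pass as different between genotypes for any of the 31 genes at 8 weeks by edgeR or DESeq2. Of the 31, 0 had an unadjusted p under 0.05, where 0.00645% of all genes tested passed, 0.0% above 0 and 0.00645% below 0. The estimate was positive for 27 genes and negative for 4, with a median of 0.07 against 0.00 over all genes.

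**Figure D4:**
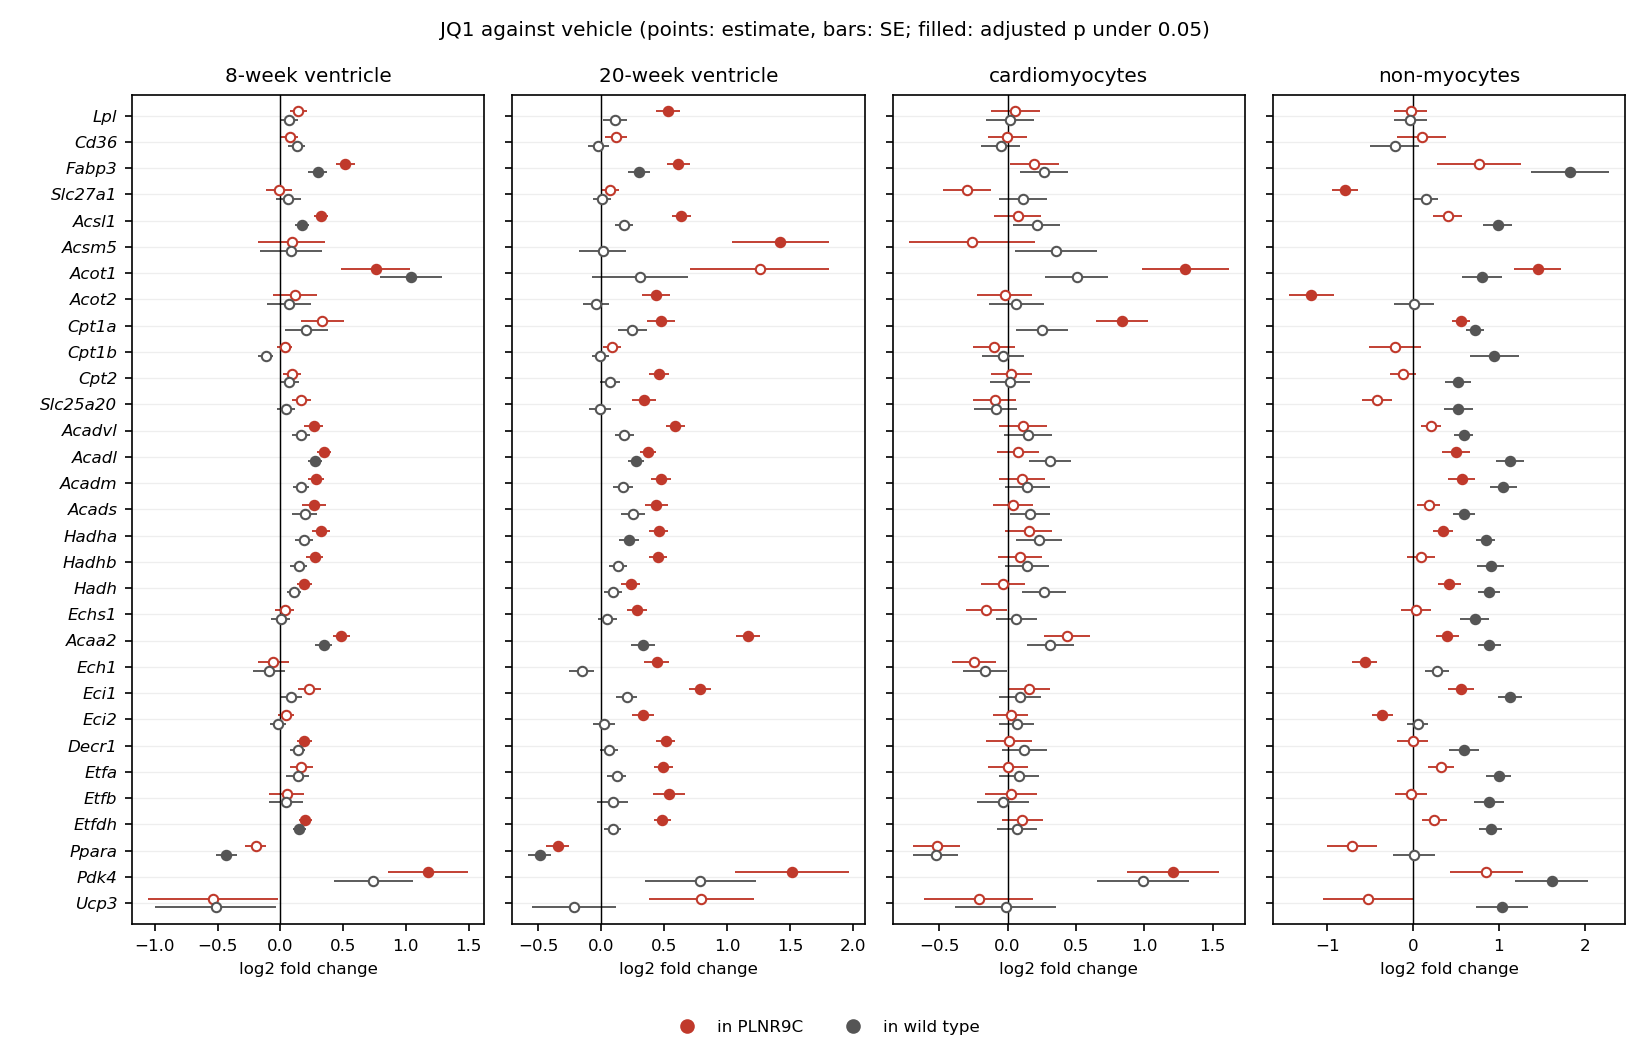
Log2 fold change of JQ1 against vehicle for each gene, in PLNR9C (red) and in wild type (grey), in the 4 kinds of sample; points are estimates, bars are SE and filled points have an adjusted p under 0.05. In the 20-week ventricle the red points lie right of the grey ones, in non-myocytes most grey points lie right of the red, and Ppara is the gene that stays left of 0 in ventricles and cardiomyocytes.

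In isolated PLNR9C cardiomyocytes, the genes passed about as often with JQ1 as all genes did: 3 of 31 rose and 0 fell, where 10.5% of all genes tested passed, 6.14% rising and 4.33% falling, and the median was 0.03, against -0.03 over all genes. Acot1 rose from 0.763, 0.934 and 1.39 to 2.57, 1.91 and 3.13 CPM (1.30 ± 0.32, adjusted p = 0.0235), Pdk4 from 459, 510.2 and 1031 to 2151, 1112 and 1369.8 (1.21 ± 0.34, adjusted p = 0.0420) and Cpt1a from 41.6, 42.7 and 42.1 to 49.6, 103 and 73.9 (0.84 ± 0.19, adjusted p = 0.0177). The highest Cpt1a value was that of replicate 2, the library with the most fibroblast RNA. Without it Cpt1a rose by 0.55, adjusted p = 0.0475, and Acot1 by 1.47, adjusted p = 0.0288, while Pdk4 did not pass (1.40, adjusted p = 0.0764). Markers of other cells were higher in the treated group as a whole: the endothelial markers summed to 479, 488 and 445 CPM with vehicle and 605, 1198 and 796 with JQ1, and 3 of 7 rose (median 0.86). The fibroblast markers had a median of 0.87, with 0 of 7 passing, and mitochondrially encoded genes took 9.98% of reads with vehicle and 14.1% with JQ1. Their part in the result was not tested. The 3 calls became 1 without PLNR9C JQ1 replicate 3 and 0 without PLNR9C vehicle replicate 1 or 2. Over all genes those fits gave 871, 819 and 676 calls, in that order, in place of 1480. In a fit of the 6 libraries alone none passed, where 22 of all 13807 genes did. With library totals 3 rose and 1 fell, beside 535 rising and 632 falling of all 14142 genes.

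The treated libraries were spread: Acaa2 had 233, 288 and 251 CPM with vehicle and 449.9, 255 and 339 with JQ1, and did not pass (0.43 ± 0.17, adjusted p = 0.119) unless replicate 2 was left out (0.61, adjusted p = 0.0206). Over all 31 genes the summed level was 9480.3, 11388 and 11150.5 CPM with vehicle and 14982, 9072 and 11843 with JQ1, lowest in replicate 2. In wild type cardiomyocytes 0 of 31 rose and 0 fell by edgeR, where 3.63% of all genes tested passed, 1.7% rising and 1.93% falling. There 3 had an unadjusted p under 0.05, as did 2735 of all 14142 genes. DESeq2 called 1 of the members and 872 of all genes. With library totals 1 member fell, as did 312 of all genes. Ppara, for instance, had 254, 249.9 and 258 CPM with vehicle and 179, 173 and 178 with JQ1, without overlap (-0.53 ± 0.17, adjusted p = 0.105). The difference between genotypes passed for 0 of 31 by edgeR and by DESeq2, with 1 at an unadjusted p under 0.05 (and 954 of all 14142 genes), where 0.0% of all genes tested passed, 0.0% above 0 and 0.0% below 0. Treated PLNR9C cardiomyocytes remained below vehicle wild type ones for 28 genes, with Cpt1a higher (0.77 ± 0.19, adjusted p = 0.00758), where 37.1% of all genes tested passed, 19.6% higher and 17.5% lower. The furthest below were Acsm5, with 0.943, 0.735 and 0.893 CPM under JQ1 (-3.55 ± 0.38), and Ucp3, with 48.3, 41.6 and 99.8 CPM in wild type and 19.6, 8.01 and 7.89 in treated PLNR9C libraries (-2.43 ± 0.40). Acadl (-0.41 ± 0.15) and Pdk4 (0.32 ± 0.33) did not pass. Without replicate 2 of the treated group, 28 were lower and 1 higher, beside 1949 lower and 2124 higher of all 14322 genes.

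In non-myocytes JQ1 raised many of the genes in wild type hearts. 23 of 30 rose and 0 fell, where 38.0% of all genes tested passed, 18% rising and 20.0% falling, with a median of 0.83 against 0.00 over all genes. Fabp3 rose most, from 30.1, 46.6 and 31.02 to 124, 109.9 and 149 CPM (1.83 ± 0.46, adjusted p = 0.0112), then Pdk4, from 64.9, 86.3 and 97.5 to 278, 259.5 and 226 (1.62 ± 0.42, adjusted p = 0.0137). All 9 spiral enzymes and all 4 shuttle genes tested rose, among them Cpt1a from 176, 202 and 185 to 337, 314 and 280.3 CPM (0.72 ± 0.10, adjusted p = 1.40e-04). Cd36 (-0.21 ± 0.28) and Lpl (-0.03 ± 0.19), the most abundant of the genes in this fraction, did not pass.

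Cardiomyocyte RNA moved with this result. The 8 cardiomyocyte markers summed to 1984, 3046 and 1956 CPM with vehicle and 5612, 4609 and 6093 with JQ1, and 6 of 8 rose (median 1.60), such as Tnnt2 (1.83 ± 0.42). The share of reads from mitochondrially encoded genes was 3.84% with vehicle and 8.91% with JQ1. Their part in the rise was not tested.

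In PLNR9C non-myocytes 8 of 30 genes rose with JQ1 and 4 fell, a total near the share over all genes. Of all genes tested 36.2% passed, 16.7% rising and 19.5% falling. Acot1 rose from 1.39, 2.00 and 2.46 to 5.52, 5.87 and 4.59 CPM (1.45 ± 0.28, adjusted p = 0.00120). Its neighbour Acot2 fell from 9.31, 10.6 and 9.92 to 6.48, 2.33 and 4.17 (-1.18 ± 0.26, adjusted p = 0.00308). The split of reads between these near-identical genes is uncertain, and so are their opposite directions. Slc27a1 fell from 36.9, 37.5 and 41.7 to 22.9, 19.8 and 24.3 (-0.79 ± 0.15, adjusted p = 0.00107), and Acadm rose from 35.6, 38.3 and 37.5 to 69.5, 47.7 and 47.4 (0.57 ± 0.16, adjusted p = 0.0154). Cpt1a rose from 268, 215 and 244 to 355, 366 and 351 CPM (0.56 ± 0.10, adjusted p = 9.39e-04). In these 5 genes the groups did not overlap. With library totals, which moved the median of all genes to -0.16, 2 rose and 6 fell, beside 1361 rising and 4136 falling of all 15347 genes. Without PLNR9C vehicle replicate 1 the 12 calls became 7, and over all genes 5548 became 4627. Mitochondrially encoded genes took 2.03% of reads with vehicle and 5.76% with JQ1. Of the mural markers, 3 of 6 rose (median 0.52), and 0 of 8 cardiomyocyte markers passed (median 0.43). Their part in the result was not tested.

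The JQ1 effect in non-myocytes did not pass as different between the genotypes for any of the 30 genes by edgeR, where 0.0% of all genes tested passed, 0.0% above 0 and 0.0% below 0. Of the 30, 22 had an unadjusted p under 0.05, all lower in PLNR9C, as did 1391 of all 15347 genes in either direction, and DESeq2 called 2 of the 30 and 66 of all genes. PLNR9C JQ1 replicate 1 had a cardiomyocyte marker sum of 2417 CPM, against 789 and 1010.4 in the other 2 of its group, and its Fabp3 was 50.7 CPM against 11.6 and 14.96. Without that library 8 of the genes passed, all with a smaller JQ1 effect in PLNR9C. In that fit 225 of all 15574 genes passed, 222 of them below 0.

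**Figure D5:**
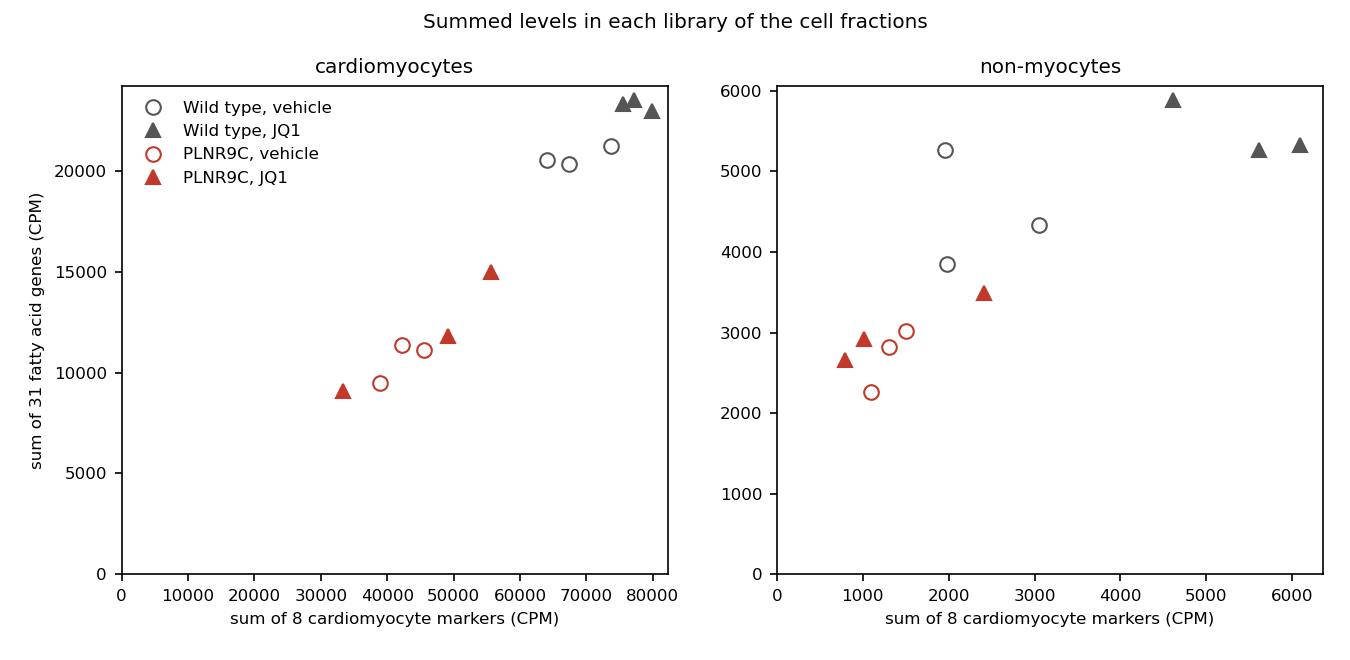
Summed level of the 31 genes (CPM) against the summed level of 8 cardiomyocyte markers (CPM) in each library of the cardiomyocyte (left) and non-myocyte (right) fractions, both axes from 0. In non-myocytes the 3 wild type JQ1 libraries have marker sums of 4609 to 6093 CPM, above every other library, and in cardiomyocytes the lowest treated PLNR9C point is replicate 2.

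A further 60 genes of fatty acid metabolism were followed as a list, among them peroxisomal enzymes, lipid droplet proteins and enzymes of triglyceride and fatty acid synthesis. In the 20-week ventricle 3 rose and 43 fell of 57 tested in PLNR9C with vehicle, where 44.7% of all genes tested passed, 23.3% rising and 21.4% falling, and the median was -0.60 against 0.01 over all genes. The smallest p-values were those of Acat1, the mitochondrial acetoacetyl-CoA thiolase (-1.23 ± 0.07), Ivd, which acts on leucine breakdown (-1.33 ± 0.09), Crat, carnitine acetyltransferase (-1.14 ± 0.08), and Acacb, the acetyl-CoA carboxylase whose product inhibits carnitine palmitoyltransferase 1 (-1.06 ± 0.08). At 8 weeks 1 rose and 20 fell of 58 tested, where 14.4% of all genes tested passed, 7.86% rising and 6.49% falling, and Ucp2 was the one that rose (0.61 ± 0.08). In cardiomyocytes 2 rose and 26 fell of 56 tested, among them Lipe, hormone-sensitive lipase (-1.10 ± 0.16), where 26.1% of all genes tested passed, 14.3% rising and 11.8% falling. In non-myocytes 4 rose and 9 fell of 58 tested, a total near the share over all genes, of which 18.6% passed, 10.3% rising and 8.32% falling.

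With JQ1 in PLNR9C, 21 rose and 5 fell of 57 tested of this list in the 20-week ventricle, where 31.9% of all genes tested passed, 15.9% rising and 16.1% falling. At 8 weeks 11 rose and 7 fell of 58 tested, a total near the share over all genes, of which 33.1% passed, 15.5% rising and 17.7% falling. Acsl3, an acyl-CoA synthetase of the endoplasmic reticulum and lipid droplets, rose by 1.5 ± 0.15 at 20 weeks and by 0.96 ± 0.15 at 8 weeks, and Ucp2 by 0.76 ± 0.10 and 0.65 ± 0.08. In wild type hearts 5 rose and 7 fell of 57 tested at 20 weeks, where 27.2% of all genes tested passed, 12.3% rising and 14.9% falling. In wild type non-myocytes 19 rose and 10 fell of 58 tested, including Acsl3 (1.09 ± 0.14), where 38.0% of all genes tested passed, 18% rising and 20.0% falling.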

How the data were processed

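RNA was sequenced in 48 libraries of mouse heart, grouped and numbered by their labels. TRIzol extraction and Nextera libraries are given per the labels' protocols. The authors deposited raw read counts per gene. STAR 2.4.1b and the builds GRCm38 and mm10 stand in the submitters' processing notes, with counting tool, annotation and strandedness not given in the sources used here. Genes that overlap another (Lpl, Acadvl, Hadha, Hadhb, Echs1, Eci2 and Ucp3 among the members) therefore cannot be fully told from it. The second value the authors deposited was read as RPKM, because it implied 1 length per gene within 0.1% for 9075 to 11388 genes per table with 50 or more reads in every library. RPKM entered no test. Coordinates are those of the tables, with starts made 1-based.

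Each experiment's 12 libraries were fitted in edgeR 4.0.16 (R 4.3.3) with filterByExpr, TMM scaling, robust glmQLFit and glmQLFTest, and both ages, or both fractions, together for differences between them. SE is the size of the log2 fold change divided by the square root of F. The fit was tested on simulated counts. Alternatives were DESeq2 1.42.0, its size factors, library totals, no low-count filter, the 6 libraries alone, a replicate block and leaving out each library. The 32 members, the 60 further genes, the markers and the rule for naming genes were chosen with earlier results of these data known. By that rule, 14 members (Cd36, Lpl, Acsl1, Acsm5, Cpt1a, Cpt1b, Acadm, Acaa2, Hadha, Pdk4, Ppara, Ucp3, Acot1 and Acot2) are given library by library at least once. In each contrast the same holds for the 2 largest rises and falls that passed, and for differences between effects up to 6 genes with the smallest p are named. Of the 60 further genes, up to 4 that passed with the smallest p are named. Libraries were counted as deviating together at a correlation above 0.1. Same-numbered libraries did so in every pair for the genotype effect in non-myocytes (correlations 0.12 to 0.25). The same held for wild type cardiomyocytes against non-myocytes (0.13 to 0.27). In both contrasts they count as paired from this check alone. For the genotype difference between fractions, 10 of 18 such pairs had correlations above 0.1 (range -0.06 to 0.31). Differently numbered libraries reached at most 0.08 there. For JQ1 in PLNR9C ventricles at 8 weeks, same-numbered pairs had correlations of 0.07 to 0.12, above the -0.09 to 0.006 of differently numbered ones. The values given for these contrasts come from the fit without pairing. Reads carry no molecular identifiers, so limits set by a count of 0 cover counting error only.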

Additional observations from a re-analysis of the deposited data

Results flagged for a closer look

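In each of 14 results a difference between 2 groups' effects passed edgeR's quasi-likelihood test of that difference. The JQ1 effect at 20 weeks was larger in PLNR9C than in wild type ventricles for Acaa2, by 0.83 ± 0.14, adjusted p = 0.0182, and for Eci1, by 0.58 ± 0.12, adjusted p = 0.0446.

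The genotype effect at 20 weeks minus that at 8 weeks was -1.38 ± 0.09, adjusted p = 2.72e-10 for Decr1, -1.76 ± 0.12, adjusted p = 2.87e-10 for Acaa2, -1.19 ± 0.09, adjusted p = 4.16e-10 for Acsl1, -1.06 ± 0.08, adjusted p = 9.10e-10 for Etfdh, -1.58 ± 0.13, adjusted p = 3.07e-09 for Eci1 and -1.14 ± 0.10, adjusted p = 1.92e-08 for Hadha. The genotype effect in cardiomyocytes minus that in non-myocytes was -1.58 ± 0.24, adjusted p = 3.01e-04 for Slc27a1, -0.95 ± 0.19, adjusted p = 0.00236 for Eci2, -2.17 ± 0.43, adjusted p = 0.00256 for Acot1, -1.10 ± 0.25, adjusted p = 0.00734 for Slc25a20, -1.05 ± 0.26, adjusted p = 0.0141 for Decr1 and -0.88 ± 0.22, adjusted p = 0.0170 for Cpt2. These are the 6 smallest p-values of each contrast.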

How the results depend on the processing

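No member's called direction reversed under any alternative. Outside the libraries left out, 3581 gene results kept their side of the threshold, 60 passed newly and 55 were lost. With 1 library left out at a time, 4753 kept it, 36 passed newly and 203 were lost. The counts of genes that passed moved by more than 1.5 times as follows. With library totals, JQ1 in PLNR9C at 8 weeks gave 9, JQ1 in wild type at 20 weeks 2 and in cardiomyocytes 1, the JQ1 difference between genotypes at 20 weeks 4, and the genotype difference between fractions 6. DESeq2's Wald test gave 8 for JQ1 in wild type at 20 weeks, 1 in wild type cardiomyocytes, 7 for the JQ1 difference at 20 weeks and 2 for that in non-myocytes. The difference at 20 weeks was 1 with DESeq2 size factors, 5 without a low-count filter and 4 with a replicate block. The 6 libraries alone gave 0 for JQ1 in PLNR9C cardiomyocytes and 2 in wild type ones, where 22 and 1183 of all genes passed. The cause was not tested.

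Leaving out 1 library gave 22 to 26 for genotype at 8 weeks, 30 each time at 20 weeks, 26 to 29 for cardiomyocytes and 9 to 16 for the other cells. For JQ1 in PLNR9C it gave 11 to 15, 23 to 25, 0 to 3 and 7 to 11 in the same order, and in wild type 5 to 7, 2 to 8, 0 each time and 17 to 23. For the JQ1 difference between genotypes the ranges were 0 each time, 0 to 3, 0 each time and 0 to 8. Treated PLNR9C against wild type gave 30 each time at 20 weeks and 28 to 30 in cardiomyocytes, the age difference 28 to 29, the fractions 30 to 31 and the genotype difference between them 5 to 12. With a correlation above 0.1 asked of every pair, replicate numbers paired only the non-myocyte genotype groups and the wild type fractions. There the replicate block changed the call of Cd36 in non-myocytes (-0.96) and no other. In the genotype difference between fractions, 10 of 18 same-numbered pairs deviated together. The block gave 1373 calls over all genes for that difference, in place of 1318. For JQ1 in PLNR9C at 8 weeks, where same-numbered pairs had correlations of 0.07 to 0.12, it gave 5116 in place of 5133. Elsewhere the numbers are taken as names, and the block moved the JQ1 difference at 20 weeks to 4. Acsm5 and Acot1 have low counts, which limits what could be detected for them at this depth, and the SE of Ucp3 is wide at 8 weeks although its counts are higher.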
